A study of Homo sapiens with 10 samples.

Results

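The intermediate filament genes described here are KRT7, KRT8, KRT17, KRT18, KRT19, KRT80, KRT81, VIM, NES and LMNA, 10 of the 62700 genes in a table of estimated counts, and were taken from it by gene name. All 10 had a row, and 9 passed the filter on low counts and were tested among 18979 genes; KRT17, with 35 counts in all libraries together, was not. The counts come from polyadenylated RNA of RPE p53-/- cells, a human line derived from the pigmented epithelium of the retina that lacks p53. One group of 5 samples was the parental control and the other group of 5 carried a CCAR1 knockout, so the loss of p53 was shared by both, and both were cultured in DMEM/F12 with GlutaMAX and 10% fetal bovine serum. The comparison asks what the knockout of CCAR1, a cell cycle and apoptosis regulator, does to gene expression across the genome. The labels do not say whether the knockout was 1 clone or whether replicates were separate cultures, so the p-values cover only how far these libraries differ from each other, and that spread may be technical. A mean is given ± SD with n = 5, and in such bulk RNA fewer cells of a type and less RNA per cell cannot be told apart.

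Intermediate filaments are the rope-like part of the cytoskeleton, built from rod-shaped proteins that coil around each other and pack side by side. Keratins are made only as pairs of an acidic type I chain (KRT17, KRT18, KRT19) and a basic type II chain (KRT7, KRT8, KRT80, KRT81), and KRT8 with KRT18 is the pair of simple, single-layered epithelia such as the retinal pigment epithelium. Vimentin, from VIM, is the type III filament of mesenchymal cells and of most cells in culture, nestin, from NES, is a long filament protein of progenitor cells that copolymerises with vimentin, and lamins A and C, both from LMNA, line the inside of the nuclear envelope.

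RefSeq promoter sequences (GRCh38.p14) were matched for 4 of the 10 genes, KRT8, LMNA, NES and VIM. Those of VIM and NES are shown because both genes were higher in knockout cells, VIM in the test of all libraries and NES in the fits that account for the replicate number or the depth of the library. Each is the stretch of 250 bases before the start site, 5′ to 3′ on the strand of the gene, chr10:17227991-17228240 (plus strand) for VIM and chr1:156677408-156677657 (minus strand) for NES. Capitals mark GC boxes (GGGCGG on either strand).
VIM: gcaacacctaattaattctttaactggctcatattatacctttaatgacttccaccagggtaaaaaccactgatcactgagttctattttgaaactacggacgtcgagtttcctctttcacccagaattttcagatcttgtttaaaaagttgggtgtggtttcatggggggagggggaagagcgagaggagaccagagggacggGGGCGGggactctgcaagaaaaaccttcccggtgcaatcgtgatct
NES: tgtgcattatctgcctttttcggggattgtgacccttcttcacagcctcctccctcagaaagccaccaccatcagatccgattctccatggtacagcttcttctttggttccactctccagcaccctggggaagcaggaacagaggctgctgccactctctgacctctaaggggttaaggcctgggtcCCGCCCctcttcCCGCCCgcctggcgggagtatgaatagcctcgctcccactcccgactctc
The GC box of VIM began 46 bases before the start site, and those of NES 62 and 50 bases before it. The full NES window searched, which runs past the printed stretch, held 4 GC boxes, the other 2 of them after the start site. A GC box was found in 45.0% of all 35116 promoter windows searched, which ran from 250 bases before to 50 bases after the start. In the same windows of VIM and NES, on both strands, no match was found for the AP-1 letters TGANTCA (7.71% of all windows), the TEAD letters GGAATG (14.0%), the Snail E-box CAGGTG (20.6%) or the TATA letters TATAAA (11.5%).

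Library totals ran from 52.6 to 65.2 M counts (M, 1e6) in replicates 1 to 3 of each genotype and from 320.6 to 385.4 M in replicates 4 and 5, called the shallow and the deep libraries here. The labels name no batch that goes with this split. CPM stands for counts per 1e6 of the library size after scaling by edgeR's TMM factors. CCAR1, the targeted gene, was at 125 to 173 CPM in the parental and 88.5 to 126 CPM in the knockout libraries (log2 fold change -0.48 with a standard error, SE, of 0.14; edgeR adjusted p = 0.0201), and its call was lost without parental replicate 5 (adjusted p = 0.0504), with library size only (0.0525) and when the chromosome 10 median was subtracted (0.121). Of 9 markers of retinal pigment epithelium, 4 (BEST1, MITF, OTX2 and SERPINF1) were at or above 1 CPM in every library and 3 (RPE65, RLBP1 and TYR) stayed under 0.2 CPM. Of 8 general epithelial markers only CLDN4 reached 1 CPM in every library, and ESRP1, CLDN7, RAB25 and GRHL2 stayed under 0.2 CPM. The summed level of 7 skeletal muscle markers was 197 to 499 CPM in the shallow and 0.207 to 0.349 CPM in the deep libraries, and that of 7 liver markers 27.2 to 76.8 and 0.609 to 1.45 CPM.

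Of the 9 genes tested, 2 rose in knockout cells (VIM and KRT81) and 1 fell (KRT80), in edgeR's quasi-likelihood test with a Benjamini-Hochberg adjusted p under 0.05. Over all genes tested 36.6% passed, 19.7% higher and 16.9% lower, so the share among these genes was near the background. The median log2 fold change was 0.11 for the 9 genes and 0.02 for all genes. With the replicate number as a block, KRT8 and KRT18 also fell and NES also rose, which made 6 of 9 against 61.2% of all genes (31.1% higher and 30.1% lower). A fit with the depth class as a term again called 6, against 64.0% of all genes. The shallow libraries alone called 5 of 9 (52.7% of all genes) and the deep ones alone 6 of 9 (57.0%). The genotypes' ranges over all 10 libraries did not overlap for KRT80, KRT81 and VIM, 3 of 9 against 30.6% of all genes. Ranges that were apart within the shallow or within the deep libraries are described for single genes below. How often that holds over all genes tested was not counted, and so few libraries can separate by chance.

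**Figure D1:**
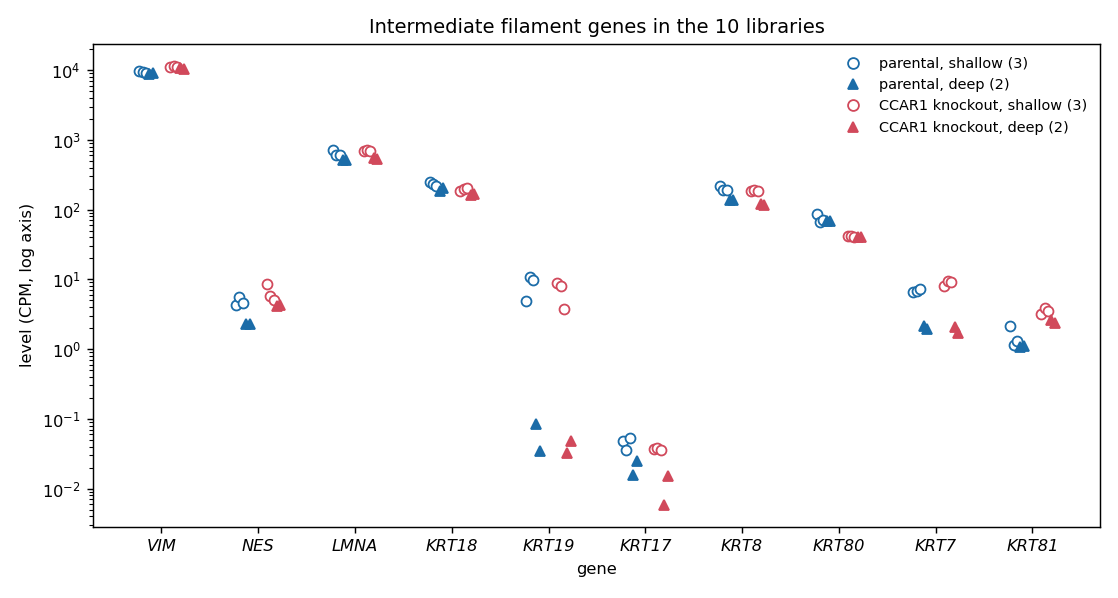
Level of the 10 genes in each library, in CPM on a log axis that is not corrected for gene length; circles are shallow and triangles deep libraries, blue parental and red knockout. VIM, KRT80 and KRT81 are the genes whose red and blue points do not overlap, and KRT19 falls from 3.77 to 10.7 CPM in the shallow libraries to under 0.1 CPM in the deep ones in both genotypes.

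VIM (ENSG00000026025.16, chromosome 10, 17228259 to 17237593, plus strand) was the most abundant of these genes and was higher in every knockout library. Its level was 9566, 9441, 9070.1, 8909 and 9126 CPM in parental replicates 1 to 5 and 11026, 11458, 11223, 10552 and 10455 CPM in knockout replicates 1 to 5. The lowest knockout library thus lay above the highest parental one, and shallow and deep libraries of a genotype were close together. The mean went from 9222 ± 272 to 10943 ± 431 CPM, 1.19-fold (log2 fold change 0.25 with SE 0.048; edgeR adjusted p = 0.00238, exact two-sided permutation p = 0.00794, the smallest that 5 libraries against 5 can give). VIM took 0.874% to 0.933% of all counts in the parental and 1.10% to 1.13% in the knockout libraries. Fitted by depth, the shallow libraries gave a log2 fold change of 0.26 and the deep ones 0.20. It was 0.23 with no filter on low counts, where the call was lost (adjusted p = 0.123), and 0.42 once the chromosome 10 median of -0.18 was taken off (adjusted p = 7.45e-05).

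The antisense gene VIM-AS1, which overlaps VIM on the minus strand, was at 7.96 ± 0.428 and 8.32 ± 1.20 CPM (log2 fold change 0.06, edgeR adjusted p = 0.714). No source used here says whether reads were counted by strand, so reads of VIM and VIM-AS1 cannot be told apart where they overlap. VIM-AS1 held 0.0775% as many counts as VIM, and adding them left the log2 fold change of VIM at 0.25.

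NES (ENSG00000132688.11, chromosome 1, 156668763 to 156677397, minus strand) did not pass in the test of all libraries but was higher in knockout cells once depth was accounted for. It was at 4.27, 5.53, 4.58, 2.25 and 2.30 CPM in the parental replicates and at 8.67, 5.69, 4.98, 4.20 and 4.22 CPM in the knockout replicates. The deep libraries were the lowest of each genotype, the knockout deep libraries lay above the parental ones, and the shallow libraries of the genotypes overlapped. Over all libraries the log2 fold change was 0.56 (SE 0.30; edgeR adjusted p = 0.181, exact permutation p = 0.151). The replicate block gave 0.62 (edgeR adjusted p = 0.00559) and the depth term 0.63 (adjusted p = 0.00202). It was 0.42 in the shallow libraries alone (adjusted p = 0.126), 0.87 in the deep libraries alone (adjusted p = 1.37e-08) and 0.33 without knockout replicate 1, the highest library (adjusted p = 0.438). Of 6 neural markers, 3 (TUBB3, MAP2 and SNAP25) were at or above 1 CPM in every library and ELAVL3 stayed under 0.1 CPM; their sum was 259 to 421 CPM in parental and 377 to 622 CPM in knockout libraries, most of it TUBB3. TUBB3 and SNAP25 rose (edgeR adjusted p = 0.0223 and 3.10e-05), and MAP2 fell from 9.55 ± 1.76 to 3.80 ± 1.03 CPM (adjusted p = 4.04e-04). The part of these markers in the NES values was not tested.

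LMNA (ENSG00000160789.24, chromosome 1, 156082573 to 156140089, plus strand) did not pass in any of the fits. It was at 709, 609, 602, 512 and 519.8 CPM in the parental replicates and at 695, 704, 692, 553 and 538 CPM in the knockout replicates. In both genotypes the deep libraries were the lowest, and the ranges overlapped. The mean was 590.3 ± 80.03 and 636 ± 83.4 CPM (log2 fold change 0.11 with SE 0.12; edgeR adjusted p = 0.522, exact permutation p = 0.373). Its smallest adjusted p among the alternatives was 0.0522, from the fit with a depth term. Lamin A and lamin C are not separated by counts per gene.

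KRT8 (ENSG00000170421.13, chromosome 12, 52897187 to 52949954, minus strand) and KRT18 (ENSG00000111057.11, chromosome 12, 52948871 to 52952901, plus strand) lie side by side, and their gene models overlap on opposite strands. KRT18 was at 249, 229, 216, 187 and 201 CPM in the parental replicates and at 186, 196, 205, 162 and 165 CPM in the knockout replicates. The genotypes overlapped over all libraries, but within the shallow and within the deep libraries every knockout library was below every parental one. KRT18 had a log2 fold change of -0.25 with an SE of 0.096 and missed the threshold (edgeR adjusted p = 0.0707, exact permutation p = 0.0476). With the replicate block KRT18 fell by 0.24 on the log2 scale (edgeR adjusted p = 0.00166), and it fell by 0.25 in the shallow and by 0.26 in the deep libraries alone (adjusted p = 0.00373 and 1.46e-05). It also passed in DESeq2 (adjusted p = 0.0239), with DESeq2 size factors in edgeR (0.0485), and without parental replicate 4 (0.0375) or knockout replicate 3 (0.0487). In 15 of 23 alternatives KRT18 did not pass, among them library size only (edgeR adjusted p = 0.110) and a filter at 1 CPM (0.111). With the median of chromosome 12 subtracted it was -0.17 (edgeR adjusted p = 0.205).

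KRT8 was at 219, 192, 191, 135 and 138 CPM in the parental replicates and at 185, 193, 186, 120.2 and 118 CPM in the knockout replicates. The shallow libraries of the genotypes overlapped, and both deep knockout libraries were below both deep parental ones. The log2 fold change of KRT8 was -0.13 with an SE of 0.19 over all libraries (edgeR adjusted p = 0.664). With the replicate block it was -0.14 (edgeR adjusted p = 0.0254). It was -0.11 in the shallow libraries alone (adjusted p = 0.170) and -0.21 in the deep libraries alone (adjusted p = 1.13e-06). Leaving out 1 library moved it between -0.21 (without parental replicate 4 or knockout replicate 2) and -0.03 (without knockout replicate 5), and with the median of chromosome 12 subtracted it was -0.06. The epithelial markers summed to 2.37 to 5.64 CPM in parental and 3.33 to 6.31 CPM in knockout libraries, and their part in the KRT8 and KRT18 values was not tested.

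KRT8 has many processed pseudogenes, copies of its mRNA elsewhere in the genome, and the count table lists 51 of them, 31 with counts. Together they held 11.5% as many counts as KRT8. KRT8P14 (ENSG00000214282.3, chromosome X, 45632292 to 45633733, minus strand), the one with most counts, was at 12.9, 15.1, 13.7, 15.0 and 15.4 CPM in the parental and at 0.968, 0.846, 0.808, 0.825 and 0.705 CPM in the knockout replicates. The groups were far apart, and shallow and deep libraries were alike. KRT8P14 fell 17.4-fold, from 14.4 ± 1.09 to 0.831 ± 0.0941 CPM (log2 fold change -4.12 with SE 0.11; edgeR adjusted p = 4.36e-09). KRT8P12 (chromosome 3, 160565447 to 160569248), chosen after its values were seen, rose 1.52-fold from 5.64 ± 0.295 to 8.58 ± 0.684 CPM (edgeR adjusted p = 1.59e-04). Reads of KRT8 and of its copies are divided by likelihood in kallisto, so the counts of each are uncertain. With the copies added, the log2 fold change of KRT8 went from -0.13 to -0.20 (edgeR adjusted p = 0.428).

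**Figure D2:**
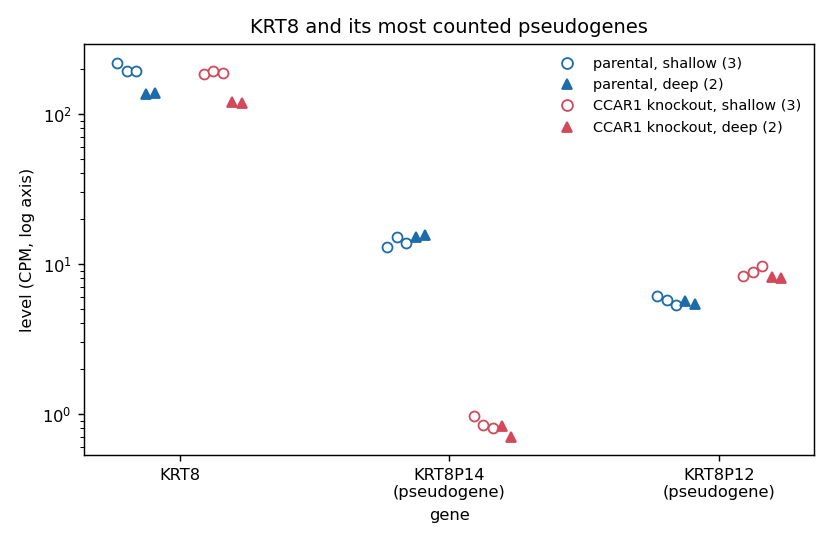
Level of KRT8 and its 2 most counted pseudogenes in each library, in CPM on a log axis; circles are shallow and triangles deep libraries, blue parental and red knockout. KRT8P14 goes from 12.9 to 15.4 CPM in parental to 0.705 to 0.968 CPM in knockout libraries, while the ranges of KRT8 overlap.

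The copies of the other members held fewer counts. The 68 pseudogenes of KRT18 summed to 0.459% of its counts, and the one with most counts, KRT18P59, was at 0.222 ± 0.0647 and 0.364 ± 0.124 CPM (edgeR adjusted p = 0.0709, with the replicate block 0.0246). KRT7-AS, antisense to KRT7, was at 0.108 ± 0.0398 and 0.175 ± 0.0711 CPM and was not tested.

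KRT80 (ENSG00000167767.14, chromosome 12, 52168996 to 52192000, minus strand), a type II keratin of many epithelia, fell in knockout cells. It was at 87.2, 65.7, 70.3, 67.9 and 68.01 CPM in the parental replicates and at 41.5, 41.5, 39.97, 40.4 and 40.5 CPM in the knockout replicates. The genotypes were apart, the knockout libraries lay within a narrow range, and parental replicate 1 was above the other parental libraries. The mean went from 71.8 ± 8.76 to 40.8 ± 0.698 CPM, 1.76-fold lower (log2 fold change -0.82 with SE 0.081; edgeR adjusted p = 2.70e-05, exact permutation p = 0.00794). Fits to the shallow libraries, to the deep ones and without parental replicate 1 gave log2 fold changes of -0.87, -0.77 and -0.74, and the call was kept in all 23 alternatives.

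KRT81 (ENSG00000205426.11, chromosome 12, 52285913 to 52291534, minus strand), a type II keratin of the hair shaft, rose at a low level. It was at 2.17, 1.15, 1.31, 1.05 and 1.10 CPM in the parental and at 3.13, 3.92, 3.56, 2.57 and 2.35 CPM in the knockout replicates. Every knockout library lay above every parental one, of which replicate 1 was the highest. The mean went from 1.36 ± 0.467 to 3.11 ± 0.657 CPM, 2.30-fold (log2 fold change 1.20 with SE 0.23; edgeR adjusted p = 0.00210, exact permutation p = 0.00794). Both depth classes gave a log2 fold change of 1.18, leaving out parental replicate 1 gave 1.43, and the call was kept in all 23 alternatives. KRT81 lies within the gene model of KRT86, another hair keratin on the opposite strand, which had 157 counts in all libraries together against 3268 for KRT81.

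KRT7 (ENSG00000135480.17, chromosome 12, 52232520 to 52252186, plus strand), a type II keratin of simple and ductal epithelia, differed more between shallow and deep libraries than between genotypes. It was at 6.56, 6.75, 7.37, 2.13 and 1.93 CPM in the parental and at 7.91, 9.46, 9.14, 2.05 and 1.70 CPM in the knockout replicates. Shallow libraries averaged 4.03 times the level of deep ones, and only among the shallow libraries was every knockout library above every parental one. Over all libraries the log2 fold change was 0.29 (SE 0.58; edgeR adjusted p = 0.760), and with the replicate block it was 0.16 (adjusted p = 0.189). In the shallow libraries alone KRT7 rose by 0.35 on the log2 scale (edgeR adjusted p = 0.00655), and in the deep libraries alone the value was -0.13 (adjusted p = 0.294). The difference between these effects, tested as an interaction of genotype with depth, was -0.47 and did not pass (edgeR adjusted p = 0.155). None of the 9 members passed that test in edgeR, against 0.601% of all genes. In 1 of 9, KRT7, the unadjusted p was under 0.05, and how often that holds over all genes was not counted.

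KRT19 (ENSG00000171345.13, chromosome 17, 41523617 to 41528308, minus strand), a type I keratin of simple and ductal epithelia, was found almost only in the shallow libraries. It was at 4.82, 10.7, 9.62, 0.0846 and 0.0345 CPM in the parental and at 8.79, 8.02, 3.77, 0.0321 and 0.0476 CPM in the knockout replicates. These levels rest on 210 to 607 counts per shallow and 11 to 32 counts per deep library, although the deep libraries held more counts in all, and the shallow mean was 153 times the deep mean. The shallow and deep ranges were apart, as they were for 34.9% of all genes tested, 17.9% with the shallow libraries higher. Between the genotypes the log2 fold change was -0.30 (SE 1.57; edgeR adjusted p = 0.917) in the fit of all libraries, and -0.33 (SE 0.37; adjusted p = 0.482) with the replicate block. The shallow libraries alone gave -0.29 (SE 0.48) and the deep ones alone -0.62 (SE 0.49), and neither passed. KRT17 (chromosome 17, 41619441 to 41624842, minus strand), a type I keratin of basal and injured epithelium, had 2 to 8 counts in every library.

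Markers of other tissues moved with KRT19 across depth in both genotypes. The 7 skeletal muscle markers found in the table summed to 338 to 499 CPM in shallow parental, 197 to 442 CPM in shallow knockout, 0.207 to 0.349 CPM in deep parental and 0.300 to 0.318 CPM in deep knockout libraries. The 7 liver markers summed to 27.2 to 69.1, 42.2 to 76.8, 0.609 to 0.693 and 1.42 to 1.45 CPM in the same order, with APOC3 at 0 in the deep libraries, and the 5 erythroid markers to 22.4 to 103, 21.8 to 182, 0.176 to 0.196 and 0.160 to 0.175 CPM. Among the erythroid markers SLC4A1 overlapped between depths, at 0.0539 to 0.265 CPM in shallow and 0.0440 to 0.0981 CPM in deep libraries. The 5 leukocyte markers summed to 1.69 to 6.59 CPM in shallow and 0.289 to 0.455 CPM in deep libraries, and CD3E, CD79A and CD14 overlapped. Epithelial markers summed to 3.76 to 6.31 CPM in shallow and 2.37 to 3.68 CPM in deep libraries, most of it CLDN4 (2.31 to 3.39 and 1.49 to 2.45 CPM). Of the others, EPCAM was at 0.305 to 0.954 CPM in shallow and 0.0157 to 0.0583 CPM in deep libraries, and CDH1 at 0.252 to 0.742 and 0.0691 to 0.105 CPM. ESRP2 was at 0.724 to 1.78 and 0.695 to 1.04 CPM, with ranges that overlapped. DES, the filament protein of muscle, was at 19.8 to 43.1 CPM in the shallow and at 0.0157 to 0.0846 CPM in the deep libraries. The part of these tissues' transcripts in the KRT19, KRT7 and DES values was not tested, and the source of the split between shallow and deep libraries was not tested either.

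**Figure D3:**
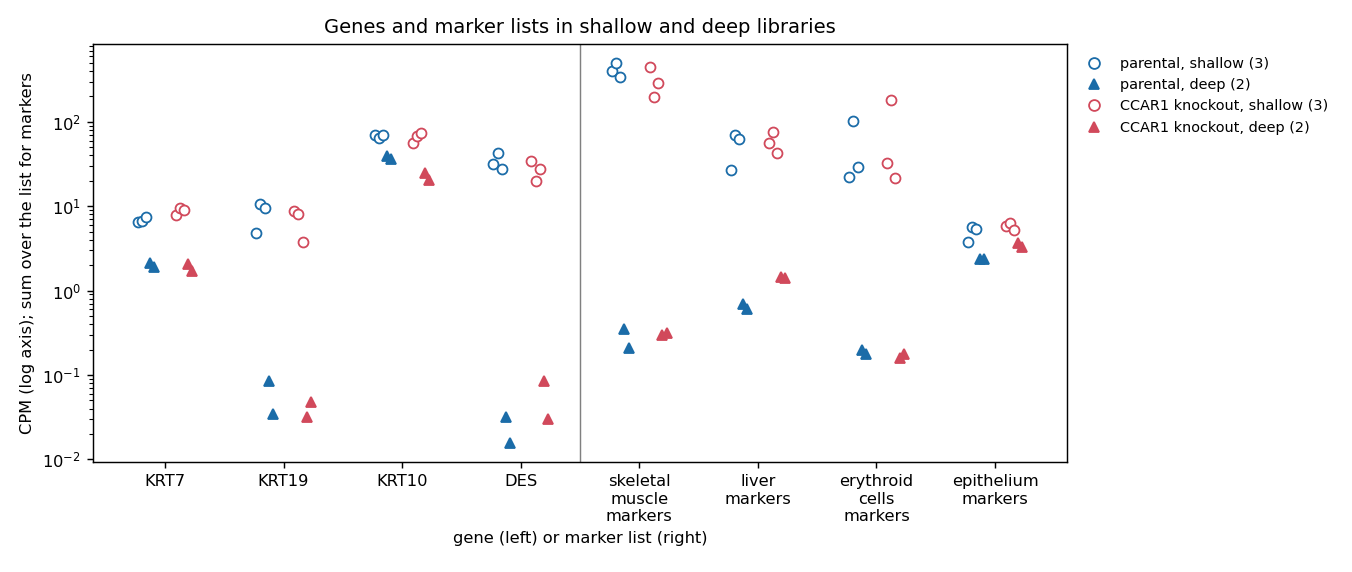
Level of KRT7, KRT19, KRT10 and DES (left of the line) and summed level of 4 marker lists (right), in CPM on a log axis; circles are shallow and triangles deep libraries, blue parental and red knockout. KRT19 and DES are higher in circles than in triangles, 153-fold and 759-fold between the means, while KRT7 differs 4.03-fold. The 4 marker lists are higher in circles too, by unlike amounts.

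The change in the deep minus that in the shallow libraries, from the interaction term, was between -0.04 and 0.11 on the log2 scale for KRT80, KRT81, VIM and KRT18, and it was 0.46 for NES and -0.47 for KRT7. None of these passed, as given above for the 9 genes.

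**Figure D4:**
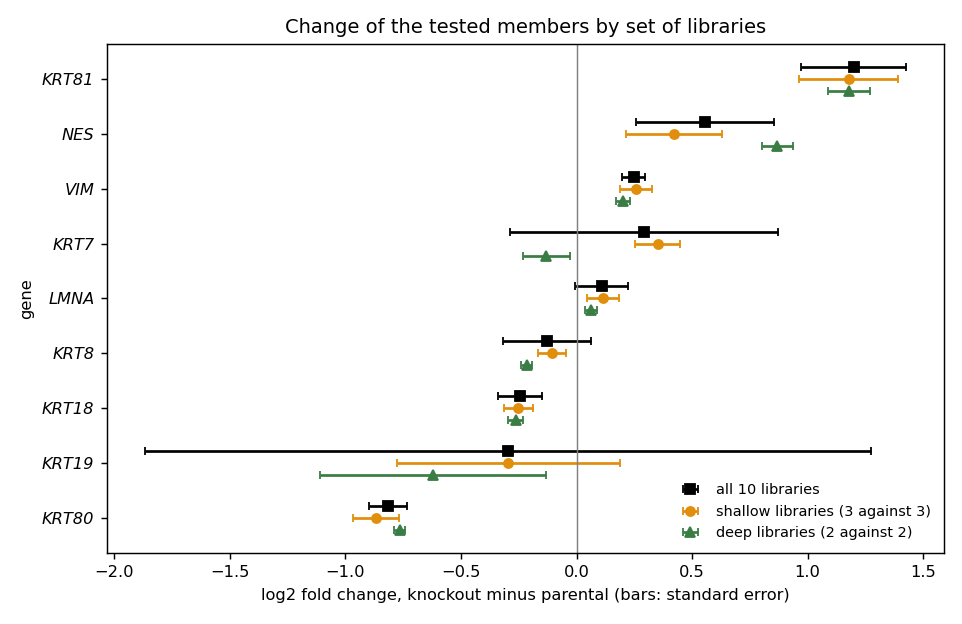
Log2 fold change, knockout minus parental, of the 9 tested genes with its standard error, from all 10 libraries (black squares), the 6 shallow (orange circles) and the 4 deep libraries (green triangles). KRT80 and KRT81 lie at -0.87 to -0.77 and at 1.18 to 1.20 in all 3 sets, while the error of KRT19 over all libraries is 1.57.

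Levels of different genes were compared as CPM per kb of the longest annotated transcript. In parental cells the order was VIM (3459 ± 102 CPM per kb), LMNA (185 ± 25.1), KRT18 (104 ± 11.6), KRT8 (61.2 ± 12.9), KRT80 (18.4 ± 2.25), KRT19 (3.64 ± 3.65), KRT7 (2.82 ± 1.53), KRT81 (0.703 ± 0.242), NES (0.681 ± 0.262) and KRT17 (0.0193 ± 0.00835). From VIM down to KRT80 each gene was apart from the next over the 5 libraries, and the neighbours KRT19 and KRT7, KRT7 and KRT81, and KRT81 and NES overlapped. The place of KRT19 rests on the shallow libraries: in deep parental replicates 4 and 5 it was at 0.0609 and 0.0248 CPM per kb, below KRT7 (1.21 and 1.10), KRT81 (0.547 and 0.568) and NES (0.405 and 0.414). In knockout cells VIM was at 4105 ± 162, LMNA at 199.5 ± 26.1, KRT18 at 87.5 ± 8.98, KRT8 at 55.98 ± 13.2 and KRT80 at 10.5 ± 0.179 CPM per kb, and KRT7 (3.45 ± 2.20) and KRT19 (2.97 ± 3.02) stood in the other order, with ranges that overlapped.

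Because keratin chains pair, the sums of type I and type II members were set side by side, as a description. The type I sum was 107 ± 14.0 CPM per kb in parental and 90.5 ± 11.3 in knockout cells, and the type II sum 83.1 ± 16.01 and 71.5 ± 15.7. KRT18 alone held 104 and 87.5 of the type I sum. Most of the type II sum was KRT8 (61.2 and 55.98) and KRT80 (18.4 and 10.5), so the sums largely restate these 3 genes. The ratio of type I to type II was 1.31 ± 0.0973 and 1.29 ± 0.142, and that of KRT8 to KRT18 was 0.585 ± 0.0668 and 0.633 ± 0.0965, with overlapping ranges over all libraries in both cases. Within the shallow and within the deep libraries, both sums were lower in every knockout library than in every parental one. How often that holds over all genes was not counted. The ratio of KRT8 to KRT18 was higher in every knockout library among the shallow ones, while the deep ranges overlapped. For the ratio of type I to type II the ranges overlapped within both depth classes. The ratio of VIM to the sum of all keratin members was 15.8, 17.2, 16.99, 21.4 and 20.9 in the parental and 23.4, 23.2, 23.01, 29.8 and 29.5 in the knockout replicates. It was higher in the deep libraries of both genotypes, and the lowest knockout value lay above the highest parental one. This ratio largely restates VIM, already apart between the genotypes, and the 3 keratins that make up most of the sum.

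The remaining keratins were mostly too low to test. Of 48 other KRT genes 6 were tested and 6 had 0 counts in all libraries. Of the 6 tested, 2 fell, 4 did not pass and 0 rose, in edgeR, DESeq2 and limma-voom alike. In edgeR 0 rose at an unadjusted p under 0.05 as well, and the share of all genes that did was not counted. With the replicate block 0 rose and 3 fell, and with depth as a term KRT14, a type I keratin of basal cells, rose (edgeR adjusted p = 0.0339) besides the 2 that fell. In the deep libraries alone 3 of 9 tested rose and 3 fell, and with no filter on low counts 2 of 42 rose and 2 fell. For comparison, 19.7% of all genes tested rose and 16.9% fell in edgeR, and 31.1% and 30.1% with the block. With depth as a term 64.0% of all genes passed, in the deep libraries alone 57.0%, and with no filter 6233 of 45973 genes. KRT15 (chromosome 17, 41513743 to 41522529), a type I keratin of basal cells, was at 7.27 to 9.95 CPM in parental and 3.81 to 4.90 CPM in knockout libraries, and fell 2.06-fold (edgeR adjusted p = 6.57e-05). KRT33B, a type I hair keratin, was at 1.38 to 1.62 and 0.554 to 1.14 CPM and fell 1.99-fold (edgeR adjusted p = 0.00221). The type I hair keratin KRT34 was at 6.49 ± 1.09 and 5.82 ± 0.930 CPM (edgeR adjusted p = 0.451, with the replicate block 0.0410). KRT10, a type I keratin of differentiating epidermis, was at 55.7 ± 16.6 and 48.6 ± 24.6 CPM (adjusted p = 0.741). Of the other epidermal markers, KRT1, KRT5 and FLG were under 0.1 CPM in every library and LORICRIN was at 0. KRT14 was found in every library, at 0.304 to 0.988 CPM. SFN was at 1.81 to 2.20 CPM in shallow and at most 0.356 CPM in deep libraries. KRT15, KRT33B, KRT34 and KRT10 lie on chromosome 17, whose protein-coding genes had a median log2 fold change of -0.28. With it subtracted, KRT15 went from -1.05 to -0.76 and KRT33B from -0.99 to -0.71, and both calls were kept. The keratin cluster of chromosome 12 holds 27 KRT genes in the table, and the 5 of them that were tested are the members KRT7, KRT8, KRT18, KRT80 and KRT81.

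Of 12 other intermediate filament genes 6 were tested, of which 1 rose, 1 fell and 4 did not pass (with the replicate block 2, 2 and 2), with a median log2 fold change of -0.09. The shares over all genes were 19.7% higher and 16.9% lower, and with the block 31.1% and 30.1%. BFSP1, which encodes the lens filament protein filensin, rose 2.24-fold from 1.19 ± 0.148 to 2.67 ± 0.308 CPM (edgeR adjusted p = 3.53e-05). LMNB2, a B-type lamin, fell from 544 ± 68.3 to 422 ± 70.9 CPM (edgeR adjusted p = 0.0446). This call was lost in 9 of 23 alternatives, among them library size only (0.0606), a filter at 1 CPM (0.0634), and leaving out parental replicate 1, 2 or 3 or knockout replicate 2, 3, 4 or 5 (largest adjusted p = 0.0993). LMNB1, the other B-type lamin, was at 180 ± 5.57 and 176 ± 7.78 CPM (adjusted p = 0.711), with a log2 fold change of -0.03 that became 0.03 with library size only. SYNM, which encodes synemin, was at 21.6 ± 2.83 and 19.6 ± 1.62 CPM (edgeR adjusted p = 0.313, with the replicate block 0.0286). DES was at 20.5 ± 19.5 and 16.3 ± 15.7 CPM (adjusted p = 0.919).

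Of 16 genes that link or anchor cytoplasmic filaments 15 were tested, and 1 rose, 6 fell and 8 did not pass (with the replicate block 2, 8 and 5), with a median log2 fold change of -0.30 against 0.02 for all genes. Over all genes 19.7% rose and 16.9% fell, and with the block 31.1% and 30.1%, which is the background for this and the next lists. DSP, or desmoplakin, which ties keratins to desmosomes, fell from 63.5 to 79.1 CPM in parental to 15.0 to 21.1 CPM in knockout libraries (3.92-fold, edgeR adjusted p = 4.59e-07). PKP2, a desmosomal plaque protein that binds desmoplakin, fell 49.8-fold from 28.6 ± 2.46 to 0.616 ± 0.268 CPM (edgeR adjusted p = 4.01e-07), and the fall differed with depth, with log2 fold changes of -5.09 from shallow and -6.50 from deep libraries (interaction of genotype with depth, edgeR adjusted p = 0.00266). Its relative PKP3 rose 1.85-fold from 5.74 ± 1.27 to 10.6 ± 2.59 CPM (edgeR adjusted p = 0.00593). DSP lies on chromosome 6, which had a median log2 fold change of -0.32.

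All 19 lamina partners and enzymes of prelamin A processing were tested, and 1 rose, 7 fell and 11 did not pass (with the replicate block 1, 10 and 8), with a median log2 fold change of -0.20, against 19.7% higher and 16.9% lower over all genes. FNTB, the beta subunit of the farnesyltransferase that modifies prelamin A, fell 1.91-fold from 21.7 ± 1.17 to 11.3 ± 0.475 CPM (edgeR adjusted p = 1.57e-06). Its alpha subunit FNTA rose 1.20-fold from 57.8 ± 4.13 to 69.3 ± 3.24 CPM (adjusted p = 0.0103), a call lost with no filter on low counts (0.101). SUN1, an inner nuclear membrane protein that binds lamin A, fell 1.44-fold from 110 ± 3.45 to 76.1 ± 4.10 CPM (adjusted p = 4.33e-05). It lies on chromosome 7, with a median of -0.30, and its log2 fold change went from -0.53 to -0.23 with that subtracted (adjusted p = 0.00977).

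Among 21 transcription factors of epithelial and mesenchymal genes 13 were tested, and 2 rose, 4 fell and 7 did not pass (with the replicate block 4, 7 and 2), with a median log2 fold change of -0.21, against the same 19.7% and 16.9%. The epithelial repressors SNAI2 and SNAI1 rose, from 6.44 ± 0.760 to 31.5 ± 1.30 CPM and from 1.92 ± 0.151 to 3.98 ± 0.615 CPM (edgeR adjusted p = 3.89e-08 and 5.97e-05). KLF5 and TFAP2A, activators of epithelial genes, fell from 7.82 ± 0.414 to 0.745 ± 0.276 CPM and from 40.6 ± 1.49 to 16.2 ± 0.410 CPM (adjusted p = 2.42e-06 and 4.88e-08). They lie on chromosomes 13 and 6, with median log2 fold changes of -0.41 and -0.32. Over 23 alternatives KLF5 ran from -4.06 to -3.02 and TFAP2A from -1.38 to -1.01, and both calls were kept. The fall of KLF5 differed with depth, -3.08 from shallow and -4.06 from deep libraries (interaction of genotype with depth, edgeR adjusted p = 0.0370). Of the other mesenchymal factors of the list, 3 are given here that were chosen after their values were seen. ZEB1 was at 44.5 ± 8.01 and 46.4 ± 11.2 CPM (edgeR adjusted p = 0.843), and ZEB2 and TWIST1 did not pass over all libraries (0.351 and 0.193) but fell with the replicate block, by 0.23 and 0.61 on the log2 scale (0.00205 and 2.56e-04).

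**Figure D5:**
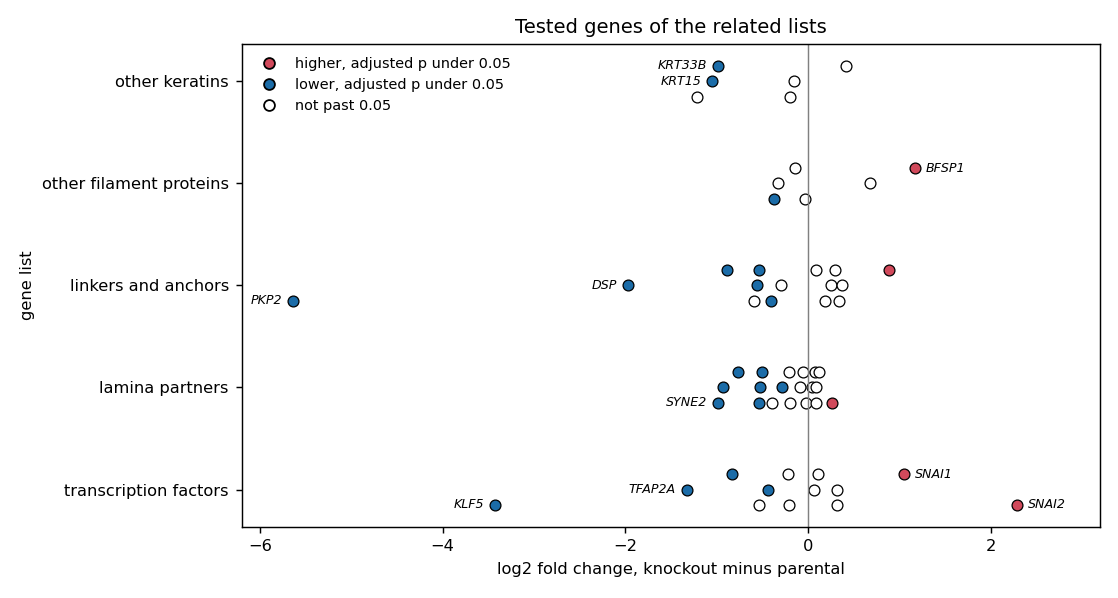
Log2 fold change, knockout minus parental, of every tested gene of the 5 related lists, 1 point a gene, in edgeR over all 10 libraries; rows within a list only keep points apart. Red points passed as higher and blue points as lower, and genes that passed beyond 0.95 in size are named; PKP2 lies farthest left at -5.64.

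The genes most alike in pattern were found by Pearson's r of log2 CPM over the 10 libraries, among 13537 genes with at least 1 CPM on average. This is a description, since the points share their library, depth and genotype. They were CD70, HSPA6 and DBP for VIM (r = 0.994 to 0.992), C6orf132, DGKD and AIF1L for KRT80 (0.994 to 0.991), IFT27, CHKB-DT and ANKRD37 for KRT81 (0.988 to 0.986) and TNFRSF21, RHOF and CDK18 for NES (0.970 to 0.951). KRT18 was closest to ZBTB12, KLHL25 and EWSR1 (0.985 to 0.982), KRT8 to AXIN1, RUVBL2 and ENSG00000285542 (0.994 to 0.993) and LMNA to APEH, SEMA7A and PPP2R1A (0.992 to 0.988). KRT7 was closest to SF3A2, CFAP410 and C8orf82 (0.995 to 0.993), and KRT19 to AHSG, APOB and ITIH2 (0.999 to 0.997). Among the members themselves, KRT7 and KRT19 were the most alike (r = 0.970), followed by VIM and KRT81 (0.958), and VIM and KRT80 were the most opposed (r = -0.875).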

How the data were processed

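Polyadenylated RNA of 10 RPE p53-/- samples was sequenced, with oligo d(T) enrichment, a NEBNext Ultra II kit and a NovaSeq, per the labels' protocols. The deposited table holds estimated counts per gene, made by the authors with kallisto 0.48.0 and hg38, per the submitters' processing notes; no source used here gives the annotation release, the step from transcripts to genes or strandedness. Where a read matches more than 1 transcript kallisto splits it by likelihood, so pseudogenes and paralogs can exchange counts.

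Counts were rounded, filtered with filterByExpr and fitted in edgeR 4.0.16 (R 4.3.3) by the robust quasi-likelihood test with TMM scaling and genotype as the term, over all 10 libraries. P-values were adjusted by Benjamini-Hochberg over 18979 genes, with a threshold of 0.05. The fit was also run on simulated data with less spread between libraries than here and no difference in gene levels by depth. That run therefore does not show how the fit behaves on these libraries. Exact two-sided permutation tests used the difference of mean log2 CPM with a prior count of 3. DESeq2 1.42.0 and limma 3.58.1 (voom) were alternatives, besides other scalings, filters, library subsets, a replicate block, depth as a term, chromosome medians subtracted and copies added. Gene positions and transcript lengths are from GENCODE release 29 (GRCh38), matched by unversioned ID (95.1% of the tested genes). The length of the longest transcript was used per kb.

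Same-numbered samples of the 2 genotypes deviated together from their group means (correlation over genes 0.584 to 0.899), above the 0.1 at which they are taken as paired. The pairing follows the depth split: unlike numbers within a depth correlated at 0.594 to 0.901, and samples of different depth at -0.776 to -0.725. The blocked value is therefore given where it changes a call. No libraries were merged, since replicates of a genotype and depth differed beyond sampling noise, with a chi-square per gene of 6.87 to 25.8.

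The members, the lists and the marker sets were chosen with earlier results of these data known. Named by rule were all members, CCAR1, other keratins and filament proteins with a mean of at least 1 CPM in either genotype, the 2 smallest adjusted p-values each way in the other lists, the 3 genes most alike to each member and the most counted copy of each. KRT17 was left out of the likeness because of its few counts.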

Additional observations from a re-analysis of the deposited data

Results flagged for a closer look

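Parental replicate 1 stood apart from the other 4 parental libraries in 2 members. KRT80 was at 87.2 CPM in it, against 65.7 to 70.3 CPM in the others, with a gap of 0.785 of the group's range, and KRT81 was at 2.17 CPM, against 1.05 to 1.31 CPM, with a gap of 0.773. In all, 24 groups of 5 libraries were examined, and chance marks about 1 in 20. Without this library the log2 fold change of KRT80 went from -0.82 to -0.74 and that of KRT81 from 1.20 to 1.43, and both calls were kept.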

How the results depend on the processing

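KRT80 and KRT81 kept direction and call in all 23 alternatives run for each, and VIM in 22. Of the 9 members, 3 were called over all libraries, 6 with the replicate block, 6 with depth as a term, 5 from the shallow and 6 from the deep libraries alone, and 3 to 4 when each library was left out in turn. Of all genes 6939 were called, with 11619 under the replicate block, 12149 with depth as a term, 15320 in the deep libraries alone and 6096 to 6905 without 1 library. The mean KRT8 to KRT18 ratio per kb went from 0.609 to 0.826 and the type I to type II ratio from 1.30 to 1.07 with the mean instead of the longest transcript length. Besides the members named in the report, the calls that the replicate block changed included those of KRT34, SYNM, KRT18P59, ZEB2 and TWIST1.

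Directions turned for values that did not pass over all libraries: KRT7 (-0.13) and DES (1.21) in the deep libraries alone, DES with limma-voom (0.53), LMNB1 with library size only (0.0251), a filter at 1 CPM (4.34e-04) and the shallow libraries alone (0.0135), KRT34 (0.12) and KRT10 (0.0834) with chromosome medians subtracted, and VIM-AS1 in the deep libraries alone (-0.15, edgeR adjusted p = 0.0164). Leaving out 1 library moved KRT19 between -0.79 and 0.18 and DES between -0.81 and 0.13. The cause was not tested. KRT17 was tested only with no filter (log2 fold change -0.59 with SE 0.67; edgeR adjusted p = 0.637). Few counts limit KRT17, at 2 to 8 a library.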
